A study of Mus musculus with 8 samples.

Results

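The genes described are 9 chemokine receptor genes, followed across macrophages of mice given LPS: Ccr1, Ccr2, Ccr3, Ccr7, Ccrl2, Cx3cr1, Cxcr2, Cxcr3 and Cxcr4. They were chosen by name, and a probe was assigned to one of them when its RefSeq transcript belonged to that gene. This gave 11 probes for 9 genes, of 39429 gene probes on the array, and each gene entered the comparison of 20736 tested features through 1 probe. Cx3cr1 had 3 probes and the other 8 genes had 1 each.

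The samples were macrophages from EP2KO mice, which lack the prostaglandin E2 receptor EP2 encoded by Ptger2 (4 arrays, EP2KO 1 to 4), and from wild-type mice (4 arrays, WT 1 to 4). Mice of both genotypes had received LPS, the bacterial endotoxin that activates macrophages through TLR4, so no array shows cells without LPS. All samples were labelled male. The knockout allele, the strain, the age, the LPS dose and time and the tissue the cells came from are not given in the sources used here. Whether each replicate is a mouse of its own is not stated by the labels. All p-values below therefore speak of the scatter among these 8 samples, which may be technical. The series title places EP2 in macrophage activity during cardiac repair.

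Chemokines are small secreted proteins, and their receptors are seven-transmembrane proteins that couple to inhibitory G proteins and direct a leukocyte up a chemokine gradient. Receptors of the CC group (Ccr) and the CXC group (Cxcr) are named after the cysteine spacing of the chemokines they bind. In mouse macrophage biology CCR2 is known for the exit of monocytes from bone marrow and CX3CR1 for patrolling monocytes and some resident macrophages. CXCR2 is known for neutrophil recruitment, CXCR3 for activated T and NK cells, CCR7 for migration to lymph nodes, and CCR3 for eosinophils.

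Each value below is the processed spot intensity divided by the 75th percentile of the gene spots of its array, called the relative signal; log2 differences are EP2KO minus WT. The arrays came from 2 slides, each scanned on its own day. Slide 1 held EP2KO 1, EP2KO 2, WT 1 and WT 2, and slide 2 held EP2KO 3, EP2KO 4, WT 3 and WT 4, so genotype could be compared within each slide. On both slides the EP2KO arrays held positions 3 and 4 and the WT arrays positions 1 and 2, so genotype and position on the slide cannot be told apart. Between 25565 and 32156 probes per array were well above background. The first principal component, with 61.0% of the variance, parted the slides. The targeted gene Ptger2 had a relative signal of 0.224 to 0.357 on the EP2KO arrays, against 0.899 to 1.12 on the WT arrays, with no overlap. Its log2 difference was -1.76 ± 0.17 (SE, n = 4 each; limma adjusted p = 0.0615). In limma it passed once slide was blocked (adjusted p = 0.0328) and did not when replicate number was the block (0.217). Adgre1, which encodes F4/80, was at 31.6 to 39.8 in EP2KO and 23.6 to 30.9 in WT, and Csf1r and Lyz2 were also well above background on all 8 arrays. In all, 13 of 14 macrophage markers had a probe and were measured on every array, so macrophage markers were present as labelled. Markers of other cells were measured too: 12 of 12 for B cells, 23 of 24 for T and NK cells, and 14 of 14 for fibroblasts and mesothelium. Detection of markers therefore does not tell macrophages from a mix of cells. The label male was not borne out. Both Xist probes were well above background on all 8 arrays. Of 5 probes for 4 Y-linked genes, 4 were on none and the fifth on 1.

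All 11 receptor probes were well above background on all 8 arrays. No receptor passed the test for a genotype difference: over all 20736 features, limma gave an adjusted p of 0.99997 for each of the 9, at a background of 0.00965% of features called. At an unadjusted p under 0.05 the count was also 0 of 9, against 1.98% of all features. EP2KO and WT overlapped for every one of the 9 receptors, whereas 1.39% of all features were without overlap (0.435% higher and 0.951% lower in EP2KO). The median difference of the 9 was -0.49, against -0.03 over all features. With the slide as a block, still 0 of 9 passed after adjustment (0.0193% of features called), and 5 of 9 had an unadjusted p under 0.05, against 7.34% of all features. Leaving out 1 array moved that slide-blocked count: it was 3 without EP2KO 1 or without EP2KO 2, 4 without EP2KO 3, and 6 without EP2KO 4 or without WT 4. With the replicate block it was 4, where Cxcr3 had an unadjusted p of 0.0547 in limma. Over all 8 arrays the 5 were Ccrl2, which was higher in EP2KO (2.49% of features higher), and Ccr2, Cx3cr1, Cxcr2 and Cxcr3, which were lower (4.85% of features lower). The sign was the same on both slides for 7 of 9, with 6 lower and 1 higher in EP2KO, against 36.3% of all features with the same sign (21.5% lower and 14.8% higher on both).

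**Figure D1:**
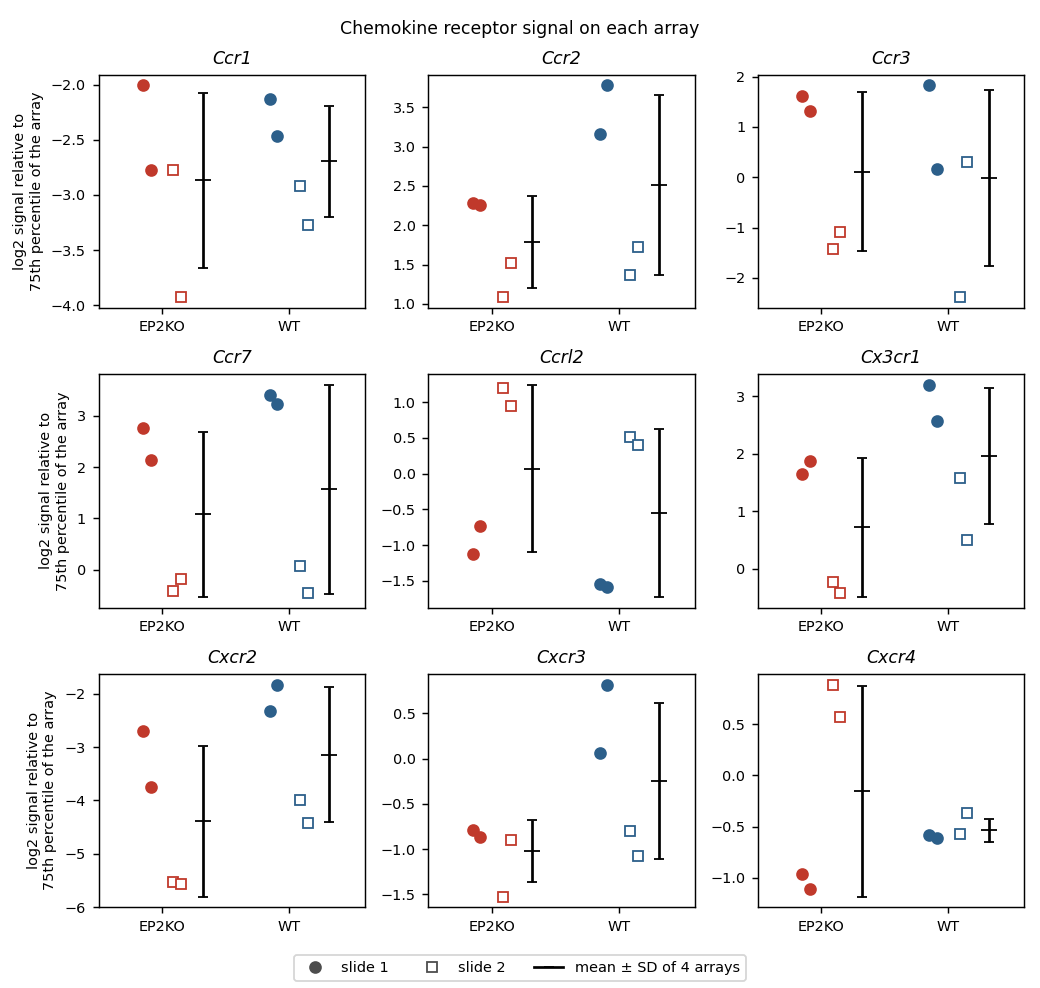
Log2 relative signal of the 9 chemokine receptors on each array (y axis, 1 panel per gene, scales differ), with EP2KO left of WT. Filled circles are slide 1, open squares slide 2, and bars the mean ± SD of 4 arrays. For most receptors the slides lie farther apart than the genotypes; the WT points of Cxcr4 lie close together on both slides.

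Cx3cr1 encodes the receptor of fractalkine, the membrane-bound chemokine CX3CL1. The relative signal of Cx3cr1 was 3.12, 3.68, 0.852 and 0.746 on EP2KO arrays 1 to 4, against 9.20, 5.94, 2.97 and 1.42 on WT arrays 1 to 4. On each slide both EP2KO arrays lay below both WT arrays, although the genotypes overlapped across slides. The difference was -1.24 ± 0.75 (SE, n = 4 each), with an exact permutation p of 0.2. It was -1.13 on slide 1 and -1.36 on slide 2, and with the slide as a block the SE narrowed to 0.26 (limma unadjusted p = 0.00176, adjusted p = 0.236). The other 2 probes of the gene differed by -1.34 and -1.28, so the 3 probes gave the same direction and similar size.

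The promoter of Cx3cr1 is shown because its EP2KO arrays lay below the WT arrays on each slide. It covers the 250 bases before the transcription start, chr9:120068297-120068546 on the minus strand (RefSeq, GRCm38.p6).
Cx3cr1: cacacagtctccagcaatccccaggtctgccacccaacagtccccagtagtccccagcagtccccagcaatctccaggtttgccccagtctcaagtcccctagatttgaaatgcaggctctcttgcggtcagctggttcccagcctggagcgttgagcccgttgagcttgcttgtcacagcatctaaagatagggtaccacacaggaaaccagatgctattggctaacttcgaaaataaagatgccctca
The motifs, searched as fixed letters on either strand of this window, were not found. They were the cAMP response element TGACGTCA, its half-site TGACG, the full kappa B letters, their shorter form GGACTTTCC, and the TATA box TATAAA. They are held by 1.546%, 17.77%, 0.14%, 0.2831% and 12.37% of 32851 promoter windows of the same length, in the order named. The half-site is part of the full cAMP response element, and the shorter kappa B letters are part of the longer, so these hits overlap. A match is only a match of letters.

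Cxcr2 encodes the receptor through which neutrophils follow CXC chemokines such as CXCL1, CXCL2 and CXCL5. Relative signals of Cxcr2 were 0.154, 0.075, 0.022 and 0.021 on EP2KO arrays 1 to 4, against 0.199, 0.282, 0.063 and 0.047 on WT arrays 1 to 4. As with Cx3cr1, both EP2KO arrays lay below both WT arrays on each slide. The slide 2 values were dim. On EP2KO 3 and EP2KO 4 the processed intensity was 24.2 and 29.1, below those arrays' median gene-spot intensity of 65.2 and 75.5. The difference was -1.25 ± 0.84 (SE, n = 4 each; exact permutation p = 0.257), and it was -1.15 on slide 1 and -1.35 on slide 2. The slide-blocked SE was 0.25 (limma unadjusted p = 0.00146, adjusted p = 0.236). Cxcr1, the neighbouring gene on chromosome 1 and also a neutrophil receptor, differed by 0.48, with 0.10 on slide 1 and 0.87 on slide 2.

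Of 18 neutrophil markers 15 were measured. Their summed relative signal was 59.1 to 108 in EP2KO and 56.9 to 132 in WT, and Ly6g had no probe that could be named here. Their median difference was -0.04. With the slide as a block, 3 of the 15 had an unadjusted p under 0.05 in limma, all lower in EP2KO, against 4.85% of all features lower. These were S100a9 (-1.60), Stfa2l1 (-1.24) and Il1r2 (-1.27), each lower on both slides, and none passed after adjustment. Of the 15, 10 had a lower and 5 a higher mean in EP2KO. S100a8, a defining neutrophil transcript, differed by -0.41, Csf3r by -0.10 and Cxcr1 by 0.48. The part of neutrophils in the Cxcr2 difference was not tested.

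Among the receptors, Cxcr2 was the one most like Cx3cr1, and Cx3cr1 the one most like Cxcr2. Their Pearson r was 0.933 over the 8 arrays and 0.787 after each slide's mean was subtracted. By the second measure the genes most like Cx3cr1 were Pop1 (r = 0.986), Lrrc51 (0.980) and Xpnpep1 (0.976). Those most like Cxcr2 were H2-Q5 (0.979), a class I histocompatibility gene, Slc25a35 (0.975) and Entpd4 (0.969). Here and below, such genes are the top 3 of 13599 searched over 8 arrays. How high r would run by chance in such a search was not tested.

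Ccr2 encodes the receptor of CCL2, CCL7 and, in mouse, CCL12, and marks monocytes and memory T cells. Its relative signal was 4.87, 4.79, 2.12 and 2.88 on EP2KO arrays 1 to 4, against 8.93, 13.8, 2.59 and 3.31 on WT arrays 1 to 4. WT 2 held the highest value and EP2KO 3 the lowest. Both EP2KO arrays of slide 1 lay below both WT arrays of that slide, while on slide 2 EP2KO 4 lay between the WT arrays. The difference was -0.72 ± 0.57 (SE, n = 4 each; exact permutation p = 0.343). It was -1.20 on slide 1, a 2.30-fold lower signal in EP2KO, and -0.25 on slide 2 (limma interaction adjusted p = 0.217). In limma with slide blocked, the unadjusted p was 0.0234 and the adjusted p 0.555.

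Cxcr3 encodes the receptor of CXCL9 and CXCL10 and is carried by activated T and NK cells. Cxcr3 had relative signals of 0.577, 0.548, 0.348 and 0.538 on EP2KO arrays 1 to 4, against 1.04, 1.76, 0.575 and 0.476 on WT arrays 1 to 4. The 2 WT arrays of slide 1 stood above all other arrays, and on slide 2 EP2KO 4 lay between the WT arrays. The difference was -0.77 ± 0.42 (SE, n = 4 each; exact permutation p = 0.229), with -1.27 on slide 1 and -0.27 on slide 2. A slide block gave an unadjusted p of 0.0278 and a limma adjusted p of 0.583.

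Ccr2 and Cxcr3 followed each other over the 8 arrays, with a Pearson r of 0.936, and of 0.947 after each slide's mean was subtracted. The arrays share slides, so the second value is the one free of the difference between slides. The genes most like Ccr2 by that second measure, of 13599 searched, were Fasl (r = 0.988), Cysltr1 (0.985) and Gpihbp1 (0.980). Those most like Cxcr3 were Ovch2 (0.994), Nodal (0.987) and 2610507B11Rik (0.986).

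T and NK cell markers were lower beside these receptors, and fewer cells of a type and less RNA per cell cannot be told apart in RNA of a whole sample. All 23 measured of 24 T and NK cell markers had a lower mean in EP2KO, with a median difference of -0.74 (-1.19 on slide 1 and -0.41 on slide 2). In the slide-blocked fit, 17 of the 23 had an unadjusted p under 0.05, all lower, against 4.85% of all features lower, and 0 passed after adjustment. Their summed relative signal was 24.1 to 33.9 in EP2KO and 47.9 to 51.7 in WT on slide 1, and 8.63 to 9.79 in EP2KO and 8.65 to 9.24 in WT on slide 2. Lck, the T cell kinase, differed by -1.01, Cd3e, a part of the T cell receptor complex, by -0.58, and Ncr1, an NK cell receptor, by -0.74. The part of T and NK cells in the Ccr2 and Cxcr3 differences was not tested. Of the 10 monocyte markers 9 were measured, with a median difference of -0.27 (-0.18 on slide 1 and -0.55 on slide 2). Their summed relative signal over both slides was 127 to 288 in EP2KO and 125 to 364 in WT. Of the 9, 7 had a lower and 2 a higher mean in EP2KO. Among them, 3 had an unadjusted p under 0.05 in the slide-blocked limma fit, all lower. That compares with 4.85% of all features lower, and 0 passed after adjustment. The part of monocytes in the Ccr2 difference was not tested. Plac8, a monocyte transcript, had the lowest difference of the 9, -0.76, and Chil3 the highest, 0.42, while Ly6c2 had no probe that could be named here.

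**Figure D2:**
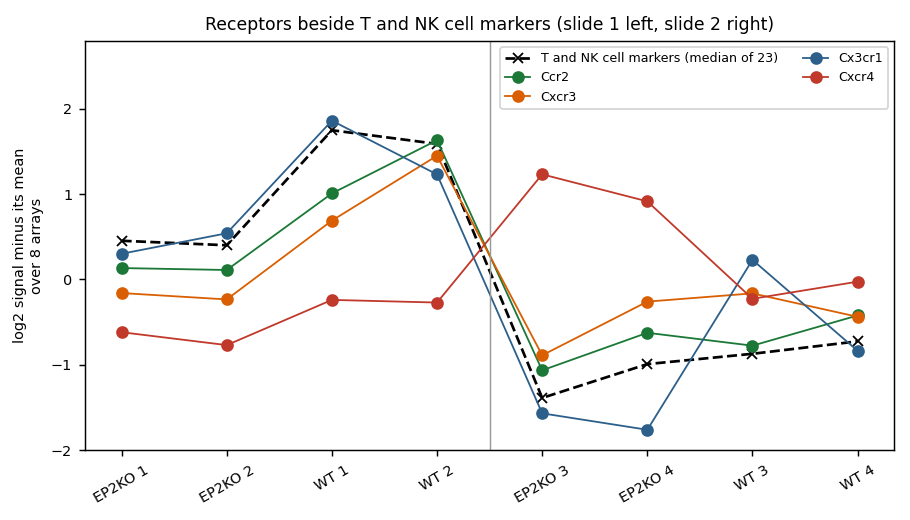
Log2 relative signal of 4 receptors on each array, less the mean of that receptor over 8 arrays (y axis), beside the median of the 23 T and NK cell markers treated the same way (dashed). EP2KO arrays stand left of WT arrays on each slide. On slide 1 Ccr2, Cxcr3, Cx3cr1 and the marker median are lower in EP2KO. On slide 2 the marker median is again lower in EP2KO, by less, and Cxcr4 stands higher in EP2KO.

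Ccr7 encodes the receptor of CCL19 and CCL21, used by naive lymphocytes and migrating dendritic cells. Ccr7 had relative signals of 6.80, 4.39, 0.751 and 0.885 on EP2KO arrays 1 to 4, against 10.6, 9.42, 1.05 and 0.731 on WT arrays 1 to 4. The slides did not overlap, and on slide 2 the EP2KO arrays lay between the WT arrays. The difference was -0.49 ± 1.14 (SE, n = 4 each; exact permutation p = 0.571), with -0.87 on slide 1 and -0.10 on slide 2. In the slide-blocked limma fit the unadjusted p was 0.0725 and the adjusted p 0.734. B cell markers, 12 of 12 measured, had a summed relative signal of 64.4 to 106 in EP2KO and 82.6 to 102 in WT on slide 1, and 6.43 to 10.1 in EP2KO and 10.6 to 14.7 in WT on slide 2. Dendritic cell markers, 14 of 18 measured, had a median difference of -0.34, with 11 lower and 3 higher in EP2KO. In the slide-blocked limma fit, 4 of the 14 had an unadjusted p under 0.05, all lower. That compares with 4.85% of all features lower, and 0 passed after adjustment. Their summed relative signal was 29.1 to 49.2 in EP2KO and 29.9 to 43.8 in WT. Siglech held much of that sum, at 16.3 to 41.8 in EP2KO and 20.8 to 25.5 in WT. The part of either cell type in the level of Ccr7 was not tested. The genes most like Ccr7 after each slide's mean was subtracted were Ola1 (r = 0.977), Coro1a (0.972), which encodes the leukocyte actin regulator coronin 1A, and Tmem243 (0.971).

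Ccr1 encodes a receptor of CCL3, CCL5, CCL6 and CCL9 carried by monocytes, macrophages and neutrophils. Its relative signal was 0.249, 0.146, 0.146 and 0.066 on EP2KO arrays 1 to 4, against 0.229, 0.181, 0.132 and 0.103 on WT arrays 1 to 4. EP2KO arrays held both the highest and the lowest value, so the WT arrays lay within the EP2KO range. The difference was -0.17 ± 0.42 (SE, n = 4 each; exact permutation p = 0.714), with a 95% confidence interval of -0.85 to 0.51 when the slide was a block. Nearest to it in pattern, after each slide's mean was subtracted, were Ap1s3 (r = 0.983), D5Ertd579e (0.983) and Rtbdn (0.979).

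Ccr3 encodes the eotaxin receptor of eosinophils, basophils and mast cells, which binds CCL11 and CCL24. On EP2KO arrays 1 to 4 its relative signal was 3.06, 2.51, 0.374 and 0.471, against 3.56, 1.13, 0.191 and 1.24 on WT arrays 1 to 4. The EP2KO arrays lay between the WT arrays on each slide. The difference was 0.13 ± 1.04 (SE, n = 4 each; exact permutation p = 0.971), with 0.47 on slide 1 and -0.22 on slide 2. Even with the slide as a block its 95% confidence interval ran from -1.33 to 1.58, the widest of the 9.

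The gene whose pattern was most like Ccr3 was Il4, the type 2 cytokine, with a Pearson r of 0.999 over the 8 arrays and 0.997 after each slide's mean was subtracted. Tuba8 (0.989) and Adora3 (0.983), the adenosine A3 receptor, came next by the second measure. Of 9 eosinophil markers 7 were measured, with a summed relative signal of 6.15 to 37.1 in EP2KO and 4.94 to 17.7 in WT. Of the 7, 4 had a higher and 3 a lower mean in EP2KO, with a median difference of 0.07. Siglecf and Il5ra, eosinophil markers, were well above background on all 8 arrays. Siglecf differed by 0.39 on slide 1 and -0.49 on slide 2, and Il5ra by 0.03 and -0.27. Epx, the eosinophil peroxidase, was well above background on 0 arrays. Mast cell markers, 8 of 10 measured, had a median difference of 2.11 and summed to 8.06 to 32.3 in EP2KO and 2.84 to 18.7 in WT. Of the 8, 7 had a higher and 1, Hdc, a lower mean in EP2KO. Mcpt4 and Cpa3, mast cell proteases, differed by 2.36 and 2.06. Hdc differed by 1.64 on slide 1 and -2.21 on slide 2. For Ccr3, the EP2KO arrays lay between the WT arrays on each slide. The part of these cell types in the level of Ccr3 was not tested.

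Ccrl2 encodes an atypical receptor that binds chemerin and presents it to neighbouring cells without signalling itself; its transcription is known to follow LPS in macrophages. Its relative signal was 0.458, 0.601, 2.30 and 1.93 on EP2KO arrays 1 to 4, against 0.341, 0.334, 1.43 and 1.33 on WT arrays 1 to 4. On each slide both EP2KO arrays lay above both WT arrays, and Ccrl2 was the receptor of the 9 for which this held. The difference was 0.62 ± 0.73 (SE, n = 4 each; exact permutation p = 0.514). It was 0.64 on slide 1 and 0.61 on slide 2, which are 1.56-fold and 1.53-fold higher in EP2KO. With the slide as a block the SE was 0.12, the smallest of the 9, with an unadjusted p of 0.00121 and a limma adjusted p of 0.207. Markers of large resident peritoneal macrophages, 13 of 13 measured, had a median difference of 0.98. In the slide-blocked limma fit, 8 of them had an unadjusted p under 0.05, all higher in EP2KO, against 2.49% of all features higher. None of the 13 passed after adjustment. Of the 13, 10 had a higher and 3 a lower mean in EP2KO, and 8 had the same sign on both slides, against 36.3% of all features. The 13 summed to a relative signal of 250 to 254 in EP2KO and 151 to 203 in WT on slide 1. On slide 2 they summed to 119 to 140 in EP2KO and 97.4 to 99.6 in WT. Their median slide 2 minus slide 1 difference was -2.35, whereas Ccrl2 was higher on slide 2. The 13 general macrophage markers had a median difference of -0.02 and summed to 404 to 557 in EP2KO and 336 to 655 in WT. The part of either in the Ccrl2 difference was not tested.

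Kappa B letters are those of a site of NF-kB, the factor that LPS activates. Only the full letters and their shorter form were searched, not other forms of the site, and Ccr7 had no listed promoter. Of the 8 receptors with a listed promoter, Ccrl2 was the receptor whose window held the shorter letters. Its 250 bases before the first of 3 listed start sites lie at chr9:111057519-111057768 on the minus strand (RefSeq, GRCm38.p6), and the capitals mark the kappa B letters GGACTTTCC, 68 bases before the start.
Ccrl2: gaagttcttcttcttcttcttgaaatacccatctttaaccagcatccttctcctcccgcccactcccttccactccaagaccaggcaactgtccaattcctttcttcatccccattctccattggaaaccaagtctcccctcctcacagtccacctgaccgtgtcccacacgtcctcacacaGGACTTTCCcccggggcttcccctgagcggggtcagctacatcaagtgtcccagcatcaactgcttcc
Those letters are in 0.2831% of all promoter windows. The overlapping windows of the other 2 start sites held a single copy of TGACG, the half-site of the cAMP response element, 218 bases before the one start and 244 before the other. That half-site is in 17.77% of all promoter windows. EP2 is known to signal through cAMP. A match describes letters in the window and no binding was measured. After each slide's mean was subtracted, Ccp110 (r = 0.972), Zfp36l3 (0.968) and Spidr (0.963) were the genes most like Ccrl2.

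Cxcr4 encodes the receptor of CXCL12, which retains leukocytes in bone marrow and tissue. Its relative signal was 0.513, 0.462, 1.85 and 1.49 on EP2KO arrays 1 to 4, against 0.667, 0.653, 0.673 and 0.774 on WT arrays 1 to 4. The EP2KO arrays lay below every WT array on slide 1 and above every WT array on slide 2, and the WT arrays stayed within a log2 SD of 0.11. The difference over all arrays was 0.38 ± 0.47 (SE, n = 4 each; exact permutation p = 0.429), which joins -0.44 on slide 1 with 1.20 on slide 2, the last a 2.30-fold higher signal in EP2KO. The test of the difference between slides gave 1.64 ± 0.22 (limma unadjusted p = 0.000269, adjusted p = 0.0822), so it did not pass over all features, of which 0.0145% were called. It passed when WT 1 was left out (adjusted p = 0.0371). At an unadjusted p under 0.05, 2 of 9 receptors (Cxcr4 and Ccr2) and 21.1% of all features differed between slides, a like share.

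S1pr2, a sphingosine 1-phosphate receptor, was the gene most like Cxcr4 after each slide's mean was subtracted (r = 0.994), followed by Dok1 (0.990) and Clip1 (0.989). The Cxcr4 window of 250 bases lies at chr1:128592300-128592549 on the minus strand (RefSeq, GRCm38.p6). It is shown because Cxcr4 was the receptor of the 8 with a listed promoter that held a TATA box. The capitals mark TATAAA on both strands, overlapping, 30 and 32 bases before the start.
Cxcr4: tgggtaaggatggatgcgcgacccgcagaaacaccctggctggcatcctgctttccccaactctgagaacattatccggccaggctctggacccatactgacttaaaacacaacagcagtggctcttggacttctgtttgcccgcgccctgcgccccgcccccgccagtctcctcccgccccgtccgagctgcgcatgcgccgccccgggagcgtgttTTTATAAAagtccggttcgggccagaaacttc
Of all promoter windows, 12.37% hold TATAAA.

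**Figure D3:**
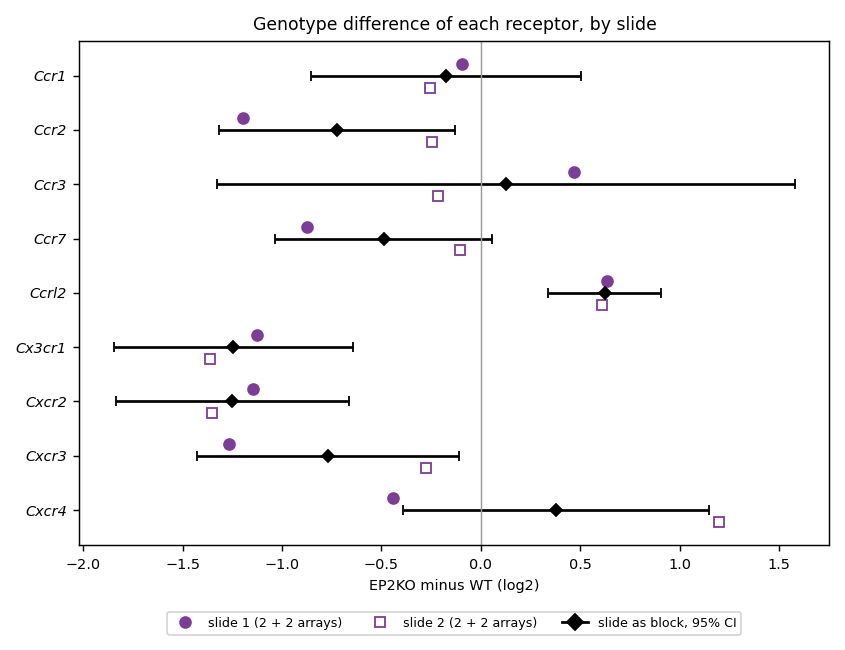
EP2KO minus WT difference in log2 relative signal (x axis) of the 9 receptors. Filled circles are slide 1 and open squares slide 2, each from 2 arrays per genotype; diamonds with bars are the slide-blocked estimate with its 95% confidence interval. The intervals of Ccr2, Cx3cr1, Cxcr2 and Cxcr3 lie below 0 and that of Ccrl2 above 0; none passed after adjustment over all features.

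The receptors also differed between slides. With genotype as a term, limma called 8 of 9 receptors at an adjusted p under 0.05, against 43.2% of all features. Of these, 7 were lower on slide 2 (18.2% of all features) and Ccrl2 was higher (25.1% of all features). Ccr7 was 8.75-fold lower on slide 2 (log2 difference, slide 2 minus slide 1, -3.13 ± 0.23 SE; limma adjusted p = 0.000158). Ccr3 was 5.21-fold lower (adjusted p = 0.0191), Cxcr2 4.70-fold lower (0.000637) and Cx3cr1 3.92-fold lower (0.00116). Ccr2, Ccr1 and Cxcr3 were 2.72-fold, 1.84-fold and 1.83-fold lower, with adjusted p-values of 0.00387, 0.0436 and 0.0402. Ccrl2 was 4.04-fold higher on slide 2 (adjusted p = 8.1e-05). Cxcr4 was 1.93-fold higher and did not pass (adjusted p = 0.0514). Single arrays decided some of these calls. The Ccr1 call was lost without WT 1, WT 2, WT 3, WT 4, EP2KO 1 or EP2KO 4 (adjusted p = 0.0516 to 0.118), and the Ccr3 call without WT 1, EP2KO 1 or EP2KO 3 (0.0562 to 0.0573). The Cxcr3 call was lost without any single array other than EP2KO 4 (0.0516 to 0.105), and Cxcr4 passed without WT 2 (0.0410) or WT 3 (0.0352). Slide and scan day coincide, and the labels say nothing of what else differed. The summed signal of B cell, T and NK cell and mast cell markers was also lower on slide 2, in EP2KO and in WT. So was that of neutrophil, eosinophil, monocyte, large resident peritoneal macrophage and general macrophage markers. General macrophage markers summed to 535 to 557 in EP2KO and 566 to 655 in WT on slide 1. On slide 2 they summed to 404 to 475 in EP2KO and 336 to 428 in WT. Sums of dendritic cell markers in EP2KO and of fibroblast and mesothelial markers in WT were not lower on slide 2.

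Of the 9 genes, 5 lie on chromosome 9. In the RefSeq gene order (GRCm38.p6), Ccr1, Ccr1l1, Ccr3 and Ccr2 are consecutive coding genes. Over this run the genotype differences were -0.17 for Ccr1, -0.23 for Ccr1l1, 0.13 for Ccr3 and -0.72 for Ccr2. Cx3cr1 is next to Ccr8, which differed by -0.38, and Ccrl2 is next to Ltf. Ccr7 lies on chromosome 11, Cxcr2 and Cxcr4 on chromosome 1 and Cxcr3 on X.

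Of the 11 other CC and CXC receptors and related genes, 9 were measured. Of these, 8 were lower and 1, Cxcr1, was higher in EP2KO, with a median difference of -0.51; the sign was the same on both slides for all 9, against 36.3% of all features. In the slide-blocked fit 5 of 9 had an unadjusted p under 0.05, all lower, against 4.85% of all features lower, and 0 passed after adjustment. Cxcr6, the receptor of CXCL16 on T and NK cells, differed by -0.80 and Ccr9 by -0.55. Ccr10, well above background on 5 of 8 arrays, differed by -1.07. Cxcr5 and Ccr6, receptors of B cells, differed by -0.29 and -0.51, and their slide 2 minus slide 1 differences were -3.45 and -3.14. Among the atypical receptors, 3 of 7 were measured. Ackr3, a scavenger of CXCL12, differed by 1.62 on slide 1 and 0.56 on slide 2, and Ackr2, a scavenger of inflammatory CC chemokines, differed by -0.68.

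Of 25 ligands of these receptors, 20 were measured, 15 with a lower and 5 with a higher mean in EP2KO, and none passed in either fit. Their median difference was 0.25 on slide 1 and -0.95 on slide 2, and the sign was the same on both slides for 8 of 20, near the 36.3% of all features. Ccl2, the main ligand of CCR2, had a relative signal of 6.65, 9.26, 2.10 and 2.24 on EP2KO arrays 1 to 4, against 5.17, 1.76, 34.5 and 11.9 on WT arrays 1 to 4. It thus differed by 1.38 on slide 1 and by -3.22 on slide 2, where Ccr2 differed by -0.25. Ccl7 and Ccl12, further ligands of CCR2, differed by 0.82 and -0.51 on slide 1 and by -2.86 and -4.24 on slide 2. Ccl12, well above background on 7 of 8 arrays, was thus lower on both slides like Ccr2. Rarres2, which encodes the chemerin bound by CCRL2, had a difference of 0.12 on slide 1 and -4.17 on slide 2, whereas Ccrl2 was 0.64 and 0.61 higher. Cx3cl1, the ligand of CX3CR1, differed by 0.79 on slide 1 and -2.34 on slide 2, while its receptor was lower on both. Cxcl5, a ligand of CXCR2, differed by -0.82 on slide 1 and -4.86 on slide 2. Cxcl9, a ligand of CXCR3 well above background on 7 arrays, differed by -1.18 and -2.32. Both were lower on each slide like their receptors, and the other measured ligands of CXCR2 and CXCR3 were not. Cxcl1, Cxcl2 and Ppbp, for CXCR2, differed by 0.56, 0.26 and 0.30 on slide 1 and by 0.15, -0.25 and -0.41 on slide 2. Cxcl10, for CXCR3, differed by 0.24 on slide 1 and -2.47 on slide 2. Cxcl12, the ligand of CXCR4, differed by 1.38 and -1.09, the opposite order to Cxcr4 on both slides. Ccl24, a ligand of CCR3, was 1.86 higher on slide 1 and differed by -0.29 on slide 2, and Ccl19, a ligand of CCR7, differed by -0.32 and -0.26. Ccl6 and Ccl9, ligands of CCR1, differed by -0.20 and -0.17. Ccl11 and Ccl26 were well above background on 0 arrays.

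Fibroblast and mesothelial markers, whose cells also make chemokines, had a median difference of 1.01 on slide 1 and -3.78 on slide 2 over 14 of 14 measured. Their summed relative signal was 59.4 to 98.5 in EP2KO and 22.5 to 95.6 in WT on slide 1, and 4.61 to 26.8 in EP2KO and 128 to 142 in WT on slide 2. The slide 1 difference rests on WT 2, at 22.5, since WT 1, at 95.6, lay between the EP2KO arrays. The part of these cells in the ligand differences was not tested.

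**Figure D4:**
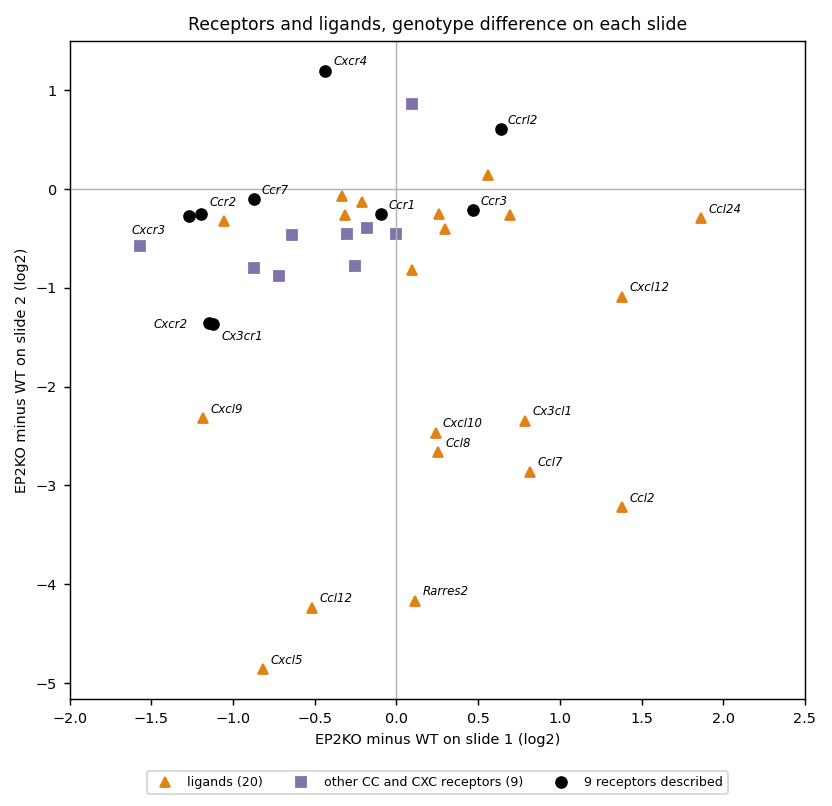
EP2KO minus WT difference in log2 relative signal on slide 1 (x axis) and on slide 2 (y axis), 2 arrays per genotype and slide. Black circles are the 9 receptors, squares 9 other CC and CXC receptors and triangles 20 ligands. Ligands such as Ccl2 (-3.22), Ccl12 (-4.24), Cxcl5 (-4.86) and Rarres2 (-4.17) lie far below 0 on slide 2, and no receptor does.

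Of 37 genes for G proteins, receptor kinases, arrestins and effectors, 36 were measured, with a median difference of -0.03. With the slide as a block, 1 had an unadjusted p under 0.05 in limma, against 7.34% of all features. That gene was Dock2, the Rac activator of migrating leukocytes, at -0.58. Of 9 RGS genes, which end G protein signalling, 9 were measured with a median difference of -0.11. Rgs16 differed by 0.96 on slide 1 and -4.25 on slide 2. Rgs3 differed by -0.46, with -0.44 on slide 1 and -0.48 on slide 2 (limma with the slide as a block, unadjusted p = 0.00172, adjusted p = 0.236).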

How the data were processed

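Total RNA of macrophages from LPS-treated mice had been labelled with Cy3 and hybridised to 8 1-colour Agilent arrays, 4 of EP2KO and 4 of WT. The deposited scanner files hold spot intensity on a linear scale, background-corrected but not scaled between arrays, per the file headers. The headers name Feature Extraction 10.7.1.1 and the submitters' processing notes Agilent Feature Extraction 9.1. The deposited series table was identical to this intensity (largest log2 difference 0). The number of arrays limits the precision.

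From these files, log2 intensity less each array's 75th percentile over gene spots was computed. Control spots (1377 of 44397) and outlier flags were left out, and spots of a probe were averaged. Probes were named through RefSeq transcripts (27508 of 39429 named). The array design is on mm9 and the gene table on GRCm38.p6, so only names, chromosomes and gene order were taken from it. A probe was kept when well above background on all arrays of a genotype, and each gene was represented by its brightest kept probe, which left 20736 features. The genotype comparison used lmFit and eBayes of limma 3.58.1 (R 4.3.3), two-sided, with Benjamini-Hochberg adjustment over all features at 0.05. Exact permutation tests used 70 arrangements, whose smallest two-sided p is 0.0286. The genotype by slide product and the slide term were tested likewise. The fits were tested on simulated data.

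Equal replicate numbers deviated together (number 1, r = 0.737; number 2, 0.122; number 3, 0.553; number 4, 0.428), although a slide is shared within each pair. After removal of the slide means r fell below 0 (slide 1, -0.39; slide 2, -0.096), so the data show no pairing beyond the slide. The pairing rule, every r above 0.1 before that removal, was met, and the replicate block is given where it changes a call.

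The receptors, gene lists and motifs were chosen with earlier results or the promoter letters of these data known. Named were all 9 receptors, Ptger2, from each pathway list the genes with the largest slide-blocked differences and any ligand beside its receptor, up to 3 markers per cell type, and the 3 genes most like a receptor. Ccr1l1, Ccr6, Ccr8, Cxcr1, Cxcr5, Il1r2, S100a9 and Stfa2l1 were named outside this rule, after their values were seen. Promoters were listed for 8 of 9 receptors. Alternatives changed the scaling, filters, probe choice, slide terms, array weights, variance model or source table, left out single arrays, or corrected the background by normexp (offset 50) on the median spot signal. Figures were drawn with matplotlib 3.10.9. Results on 1 gene of the receptor list are not reported here.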

Additional observations from a re-analysis of the deposited data

Results flagged for a closer look

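The relative signal of Cxcr3 on EP2KO 3, at 0.348, stood apart from the other EP2KO arrays, at 0.538 to 0.577. On the log2 scale its gap to the nearest array was 0.863 of the group's range, above Dixon's critical value for 4 arrays. It was 1 of 22 groups tested, of which chance gives about 1.1.

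The genotype difference of Cxcr4 differed between slides by 1.64 on the log2 scale, slide 2 minus slide 1, with EP2KO below WT on slide 1 and above WT on slide 2. In limma this gave an adjusted p of 0.0822. It was 0.0371 without WT 1, the leave-one-out setting that passed, and over all 11 alternatives the adjusted p ran from 0.0371 to 0.339. Slide and scan day cannot be told apart.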

How the results depend on the processing

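None of the 9 receptors passed for EP2KO against WT in any of 30 alternatives, with array weights, other scalings, filters and arrays left out included. Over all features, 2 were called without a slide term, 4 with the slide as a block, 4 with the slide as a random block, 0 with the replicate block, 0 on slide 1 alone and 217 on slide 2 alone (0 to 4 with 1 array left out, 0 to 6 with the slide as a block too). Without EP2KO 1 that count was 4, and without WT 1, WT 3, EP2KO 2, EP2KO 3 or EP2KO 4 it was 0. The replicate block, which pairs the arrays by number, changed no call of a receptor; for Ptger2 it gave a limma adjusted p of 0.217. The difference of Ccr2, Ccrl2, Cx3cr1, Cxcr2 and Cxcr3 kept its sign in all 30. Other signs turned. With 1 array left out the genotype difference ran from -0.46 to 0.18 for Ccr1, -0.66 to 0.74 for Ccr3 and -1.16 to 0.13 for Ccr7. With the slide as a block too, it turned to 0.074 for Ccr1 without EP2KO 4 and to -0.27 and -0.34 for Ccr3 without WT 2 and without WT 3. It was -0.22 for Ccr3 on slide 2 alone and -0.44 for Cxcr4 on slide 1 alone. The difference between slides in the genotype effect ran, with 1 array left out, from -0.74 to 0.42 for Ccr1, -2.03 to 0.66 for Ccr3, -0.22 to 0.17 for Ccrl2, -0.77 to 0.30 for Cx3cr1 and -0.73 to 0.32 for Cxcr2. Under quantile normalization it was 0.050 for Ccr1 and 0.13 for Cxcr2, and under normexp 0.11 for Ccrl2. The number of receptors with a called interaction was 0 to 1 with 1 array left out (Cxcr4, without WT 1). Receptors called between slides numbered 8, and 5 under normexp (Ccr1, Cxcr2 and Cxcr3 lost) and 5 to 7 with 1 array left out, 5 of them without WT 1 and without EP2KO 1. The cause was not tested for any of these. All 11 receptor probes were well above background on all 8 arrays.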
